A study of Arabidopsis thaliana with 9 samples.

Results

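Ah20mirS2 is a hairpin sRNA precursor of the Arabidopsis halleri S-allele Ah20, and its sRNAs were compared here between the 3 libraries in which they were listed. All entries of the deposited Ah20mirS2 table were taken, 1 repeated entry was counted once, and an sRNA was counted as distinct by its start, end, strand and sequence. This gave 68 distinct sRNAs of the 272 listed for the whole series, which also covers the precursors Ah20mirS3 with 109 and Ah04mir1887 with 95. The sRNAs came from immature floral buds of A. thaliana, accession C24, homozygous for an Ah20mirS2 transgene. The study sequenced an AGO1-IP fraction, an AGO4-IP fraction and the input of the immunoprecipitation, 1 library each and without replicates. All 3 Ah20mirS2 libraries come from plants with the same transgene, so none of them lacks the precursor, and the expression of an A. halleri hairpin in A. thaliana is the setting in which every value below was obtained.

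The table names its libraries by the codes AVBR-2, AVBR-3 and AVBR-13. No label ties a code to a fraction, so the libraries are compared by code and no value below is assigned to the AGO1-IP, AGO4-IP or input fraction. An sRNA is either listed under a code or not: the table gives no read counts, the depth of each library is therefore unknown, and a longer list can come from a deeper library. The 95% Wilson intervals in the text cover counting error only, and sRNAs that overlap on 1 hairpin are not independent, so no test between codes was made.

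In the Brassicaceae, the S-locus holds the pollen ligand gene SCR and the pistil receptor gene SRK, whose recognition makes a plant reject its own pollen. In heterozygotes, sRNAs made by precursors linked to dominant S-alleles can silence the SCR gene of recessive ones, and such precursors are inverted repeats whose transcript folds into a hairpin. Dicer-like enzymes cut a hairpin into duplexes with short 3' overhangs, the different Dicer-like enzymes give different lengths, and ARGONAUTE proteins take up one strand, with a preference that depends on length and on the 5' base: AGO1 is known for sRNAs beginning with U, and AGO4 for longer sRNAs beginning with A.

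All 68 sRNAs lay on the minus strand of the Ah20 contig 3 sequence of the study, between positions 2191 and 2322. Position 1 of the precursor is given here to coordinate 2322, the 5' end of the covered stretch, and position 132 to coordinate 2191. The sRNAs covered 124 of these 132 nt, and no base differed between overlapping sRNAs. The covered parts are shown because every comparison below refers to them, with capitals marking the bases that lie in an sRNA listed under all 3 codes, and with T for U as in the deposited sequences.
5' part, positions 1 to 56: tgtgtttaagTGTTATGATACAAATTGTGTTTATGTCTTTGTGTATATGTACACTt
3' part, positions 65 to 132: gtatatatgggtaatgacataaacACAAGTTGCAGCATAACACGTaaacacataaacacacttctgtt
No sRNA held the 8 nt at positions 57 to 64, which entered the fold as unknown. The RNAfold structure had 45 base pairs, at -48.4 kcal/mol, with a terminal loop at positions 53 to 64 and an unpaired 3' tail of 16 nt from position 117. The size of the loop follows in part from the unknown bases, which the program leaves unpaired. The tail likewise depends on the stretch that was folded. Position 1 pairs with position 116, and bases upstream of position 1, which could face the tail, were not in the fold.

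Most Ah20mirS2 sRNAs were listed under a single code. Of the 68, 48 stood under 1 code only (70.6%, 58.9 to 80.1), 14 under 2 codes and 6 under all 3. AVBR-2 listed 42 sRNAs, of which 27 were in no other library, AVBR-3 listed 23 with 9 of its own, and AVBR-13 listed 29 with 12 of its own. The library with the longest list thus also had the highest share of sRNAs of its own, 64.3% (49.2 to 77.0) under AVBR-2 beside 39.1% (22.2 to 59.2) under AVBR-3 and 41.4% (25.5 to 59.3) under AVBR-13, with overlapping intervals. Without AVBR-2, the number listed under 1 code only was 30. Without AVBR-13, the 2 codes left shared 9. This is their pairwise overlap, which includes sRNAs listed under all 3 codes and is not a like number to the 14.

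**Figure D1:**
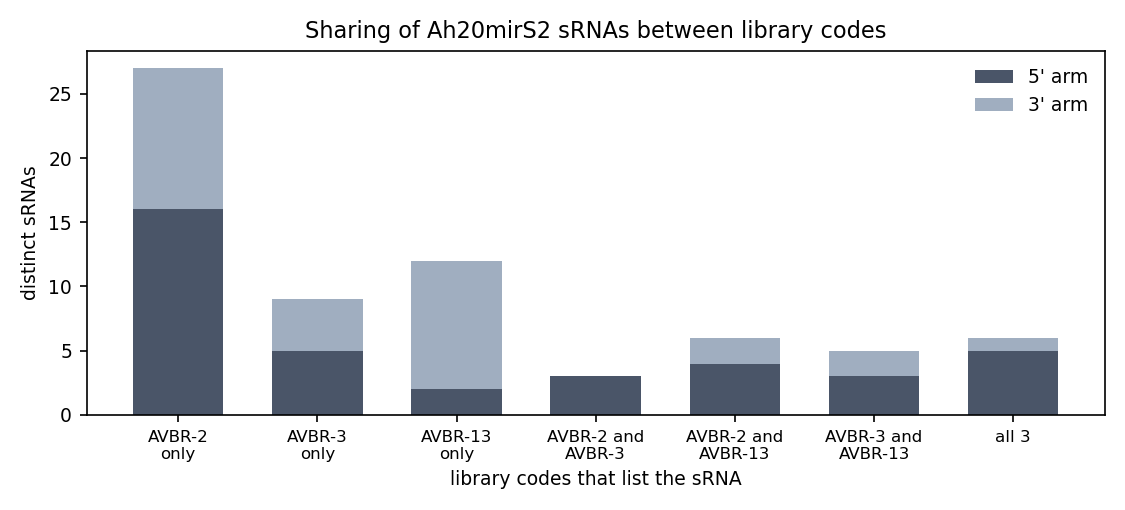
Number of distinct Ah20mirS2 sRNAs (vertical axis) by the library codes that list them (horizontal axis), with the 5' arm in dark and the 3' arm in light grey. The tallest bar is AVBR-2 only, with 27 sRNAs. AVBR-13 only has 12, of which 10 are from the 3' arm, and all 3 codes share 6, of which 5 are from the 5' arm.

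The pairwise overlap was partial for every pair. AVBR-2 and AVBR-3 had 9 sRNAs in common, which is 21.4% of the AVBR-2 list and 39.1% of the AVBR-3 list. AVBR-2 and AVBR-13 had 12 in common, 28.6% of the AVBR-2 list and 41.4% of the AVBR-13 list. AVBR-3 and AVBR-13 had 11 in common, 47.8% of the AVBR-3 list and 37.9% of the AVBR-13 list, although these are the shorter lists of the 3. Sharing between libraries was not shown to be peculiar to Ah20mirS2. The share of sRNAs listed under at least 2 of a precursor's 3 codes was 29.4% (19.9 to 41.1) for Ah20mirS2, against 37.6% (29.1 to 47.0) for Ah20mirS3 and 38.9% (29.8 to 49.0) for Ah04mir1887, and the 3 intervals overlap.

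The 6 sRNAs listed under all 3 codes are printed in the order of their position along the hairpin, because every library lists them. The capital marks the 5' base.
mirS2_sRNA103 (positions 11 to 31): Tgttatgatacaaattgtgtt
mirS2_sRNA125 (positions 30 to 53): Tttatgtctttgtgtatatgtaca
mirS2_sRNA114 (positions 31 to 54): Ttatgtctttgtgtatatgtacac
mirS2_sRNA87 (positions 32 to 51): Tatgtctttgtgtatatgta
mirS2_sRNA91 (positions 32 to 55): Tatgtctttgtgtatatgtacact
mirS2_sRNA17 (positions 89 to 109): Acaagttgcagcataacacgt
Of these, 5 begin with U and lie on the 5' arm, and 1, mirS2_sRNA17, begins with A and lies on the 3' arm. In the inner 5' arm, 4 of them start at positions 30 to 32. Among the 4, mirS2_sRNA125, mirS2_sRNA114 and mirS2_sRNA91 are each 24 nt long and end 1 nt apart, while mirS2_sRNA87 is 20 nt long. The remaining 2, mirS2_sRNA103 and mirS2_sRNA17, are 21 nt long and lie farther from the loop. Together the 6 cover positions 11 to 55 and 89 to 109.

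The sRNAs that only a pair of codes shared were few, and each pair had 1 of 23 nt from the inner 5' arm. AVBR-3 and AVBR-13 alone shared 5, all of 23 to 25 nt, and the capital again marks the 5' base.
mirS2_sRNA113 (positions 31 to 53, 23 nt): Ttatgtctttgtgtatatgtaca
mirS2_sRNA115 (positions 31 to 55, 25 nt): Ttatgtctttgtgtatatgtacact
mirS2_sRNA92 (positions 32 to 56, 25 nt): Tatgtctttgtgtatatgtacactt
mirS2_sRNA11 (positions 103 to 125, 23 nt): Aacacgtaaacacataaacacac
mirS2_sRNA12 (positions 103 to 126, 24 nt): Aacacgtaaacacataaacacact
mirS2_sRNA115 and mirS2_sRNA92 are the 2 sRNAs of 25 nt in the table, and AVBR-2 listed 0 of 42 of that length, which allows a share of up to 8.38%. mirS2_sRNA11 and mirS2_sRNA12 share a 5' end in the outer 3' arm and run into the tail left unpaired in this fold.

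AVBR-2 and AVBR-3 alone shared 3, all from the inner 5' arm.
mirS2_sRNA121 (positions 30 to 49, 20 nt): Tttatgtctttgtgtatatg
mirS2_sRNA109 (positions 31 to 49, 19 nt): Ttatgtctttgtgtatatg
mirS2_sRNA90 (positions 32 to 54, 23 nt): Tatgtctttgtgtatatgtacac
The first 2 end at the same base, position 49, where no other listed sRNA ends. AVBR-2 and AVBR-13 alone shared 6, of which the longest, the shortest and the 3 of 21 nt are shown.
mirS2_sRNA124 (positions 30 to 52, 23 nt): Tttatgtctttgtgtatatgtac
mirS2_sRNA16 (positions 89 to 108, 20 nt): Acaagttgcagcataacacg
mirS2_sRNA99 (positions 1 to 21, 21 nt): Tgtgtttaagtgttatgatac
mirS2_sRNA56 (positions 17 to 37, 21 nt): Gatacaaattgtgtttatgtc
mirS2_sRNA33 (positions 18 to 38, 21 nt): Atacaaattgtgtttatgtct
mirS2_sRNA16 is mirS2_sRNA17 without its last base. The 3 of 21 nt come from the outer 5' arm, and mirS2_sRNA72, the one not shown, covers positions 109 to 130 of the 3' tail side with 22 nt.

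**Figure D2:**
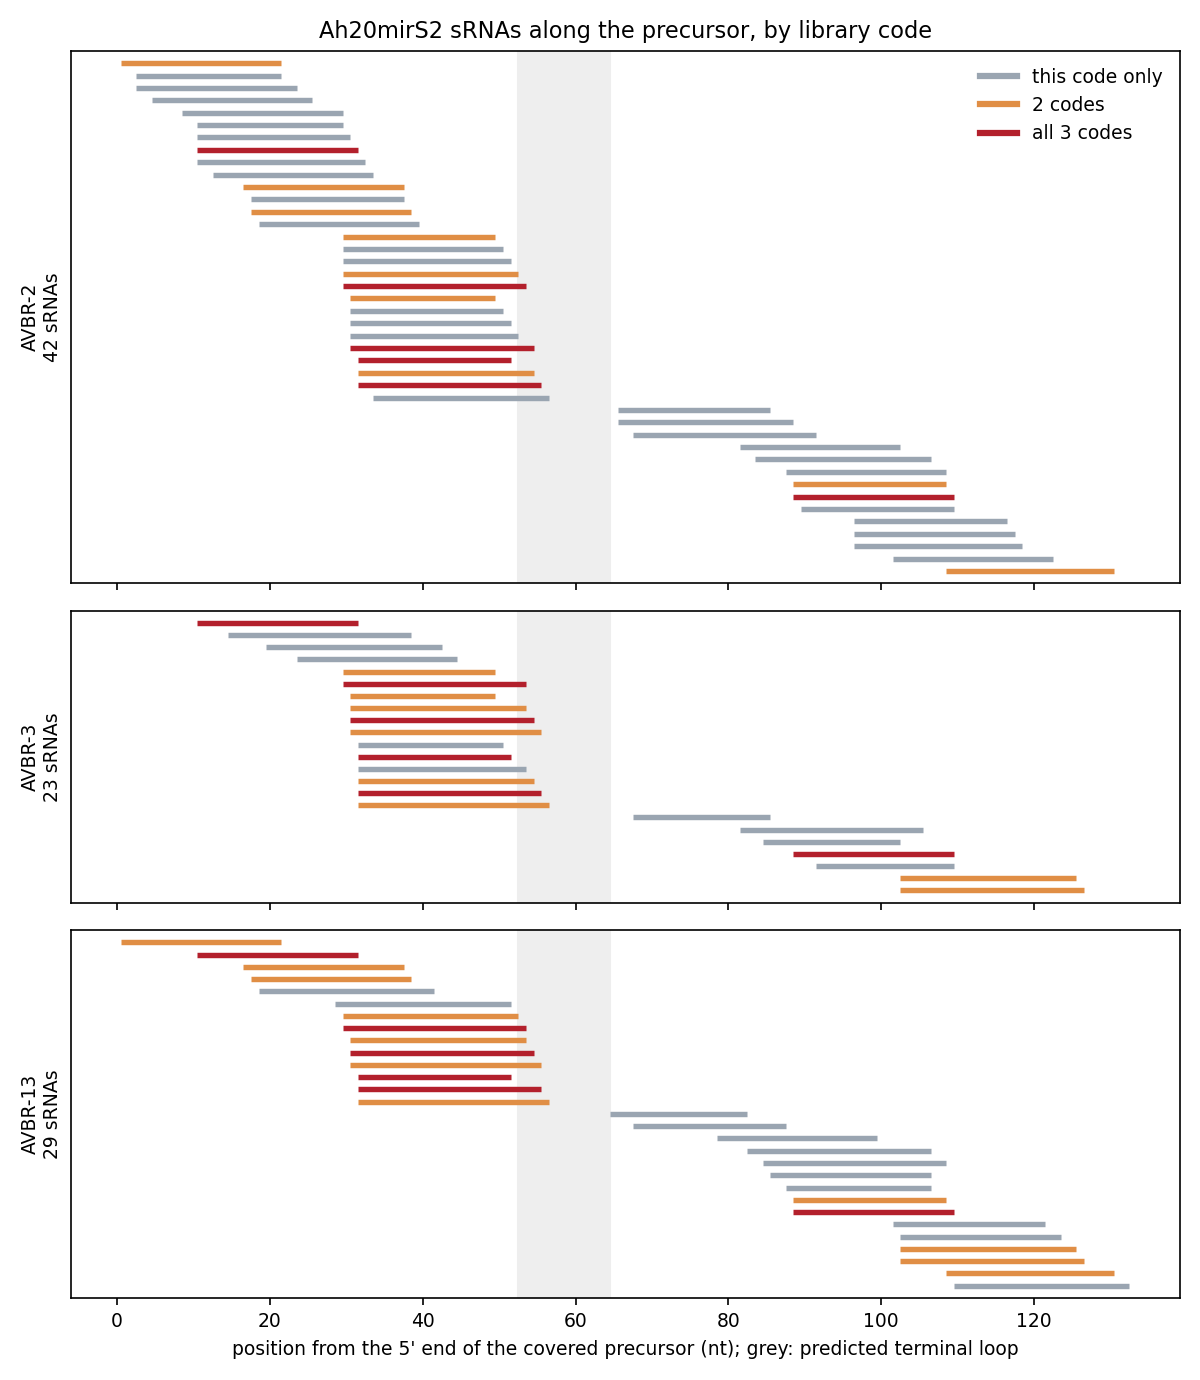
Each bar is a distinct Ah20mirS2 sRNA drawn along the precursor (horizontal axis, position in nt from the 5' end of the covered stretch), in 1 panel per library code, with grey for sRNAs of that code only, orange for 2 codes and red for all 3. The grey band is the predicted loop at positions 53 to 64. The red bars gather at positions 30 to 55, and in the outer 5' arm 10 of the 14 bars of AVBR-2 are grey. AVBR-3 and AVBR-13 list fewer sRNAs there, 4 and 5. Of these, mirS2_sRNA36, mirS2_sRNA13 and mirS2_sRNA40 of AVBR-3 and mirS2_sRNA78 of AVBR-13 are grey.

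Many sRNAs of a single library began at the same base as an sRNA of another. The 68 sRNAs used 35 different 5' ends, of which 19 were listed under 1 code, 10 under 2 and 6 under all 3. Their 3' ends numbered 43, with 23, 12 and 8 in the same order. Counted by 5' end, AVBR-2 and AVBR-13 had 13 in common of 23 and 21, AVBR-3 and AVBR-13 had 8 of 13 and 21, and AVBR-2 and AVBR-3 had 7 of 23 and 13. Of the 27 sRNAs listed under AVBR-2 only, 14 began at a base where another library also listed an sRNA and 4 began 1 nt away. Of the 9 under AVBR-3 only, 5 began at such a base and 1 began 1 nt away, and of the 12 under AVBR-13 only these numbers were 6 and 5. No sRNA began more than 5 nt from a 5' end of another library. When sRNAs with a common 5' end were counted as shared whatever their length, 23 remained under 1 code, and 27 had a 5' end listed under all 3 codes.

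Along the hairpin, the sRNAs fell into 7 groups of 5' ends, separated by gaps of more than 4 nt. The inner 5' arm, with 5' ends at positions 29 to 34, held 20 sRNAs, of which AVBR-2 listed 14, AVBR-3 12 and AVBR-13 9. It had the highest share of sRNAs under at least 2 codes, 11 of 20 (55.0%, 34.2 to 74.2). This interval overlaps that of all 68 sRNAs (29.4%, 19.9 to 41.1) and those of the other groups of 5 or more sRNAs. The share was 22.2% in the outer 5' arm and 40.0% (11.8 to 76.9) in the group at positions 102 and 103. Of the 20 sRNAs of the inner 5' arm, 19 began with U. The outer 5' arm, with 5' ends at positions 1 to 24, held 18 sRNAs, 14 of them under AVBR-2, against 4 under AVBR-3 and 5 under AVBR-13. In AVBR-2, both groups were thus of the same size, whereas AVBR-3 and AVBR-13 listed more from the inner than from the outer group.

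The 3' arm had more groups and less sharing. Beside the loop, the group with 5' ends at positions 65 to 68 held 6 sRNAs, and none was shared between codes. The largest, at positions 79 to 92, held 14, with 6 under AVBR-2, 4 under AVBR-3 and 7 under AVBR-13. At position 97, 3 sRNAs began, mirS2_sRNA48, mirS2_sRNA49 and mirS2_sRNA50 of 20, 21 and 22 nt, all listed under AVBR-2 only and all beginning with C. The group at positions 102 and 103 held 5, with 1 under AVBR-2, 2 under AVBR-3 and 4 under AVBR-13, and the group at positions 109 and 110 held the last 2, both listed under AVBR-13 and 1 of them, mirS2_sRNA72, also under AVBR-2. In all, 5 of the 30 sRNAs of the 3' arm were listed under at least 2 codes (16.7%, 7.34 to 33.6), beside 15 of the 38 of the 5' arm (39.5%, 25.6 to 55.3), with overlapping intervals.

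The share of the 5' arm was 66.7% under AVBR-2 (28 of 42, 51.6 to 79.0), 69.6% under AVBR-3 (16 of 23, 49.1 to 84.4) and 48.3% under AVBR-13 (14 of 29, 31.4 to 65.6). These intervals overlap. Among the sRNAs of a single library, 2 of the 12 of AVBR-13 only were from the 5' arm (16.7%, 4.70 to 44.8), mirS2_sRNA78 and mirS2_sRNA70, beside 16 of the 27 of AVBR-2 only (59.3%, 40.7 to 75.5) and 5 of the 9 of AVBR-3 only (55.6%, 26.7 to 81.1), with overlapping intervals. With only the shared sRNAs counted, the 5' arm made up 80.0% of AVBR-2, 78.6% of AVBR-3 and 70.6% of AVBR-13.

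**Figure D3:**
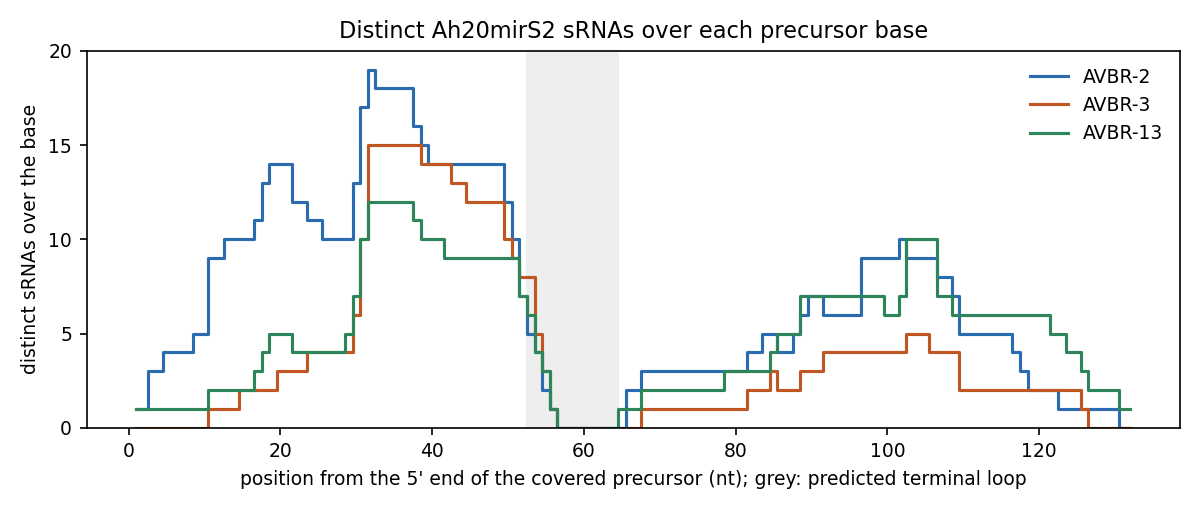
Number of distinct sRNAs over each base (vertical axis) along the precursor (horizontal axis, position in nt from the 5' end of the covered stretch), with a line per library code and the predicted loop in grey. All 3 lines peak from position 32, at 19 for AVBR-2, 15 for AVBR-3 and 12 for AVBR-13, and AVBR-13 reaches 10 on the 3' arm at positions 103 to 106.

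In every library the base covered by most sRNAs lay in the inner 5' arm. AVBR-2 had 19 sRNAs over position 32, AVBR-3 had 15 over positions 32 to 38, and AVBR-13 had 12 over positions 32 to 37. On the 3' arm the highest coverage was 10 at position 102 in AVBR-2, 5 at positions 103 to 105 in AVBR-3 and 10 at positions 103 to 106 in AVBR-13. The lists differed in the bases covered at the base of the hairpin, where few sRNAs lay. Over positions 1 to 10, AVBR-13 had 1 sRNA per base and AVBR-2 had 1 to 5. Over the last 2 bases, AVBR-13 had 1. AVBR-13 covered all 124 bases that any library covered, AVBR-2 covered 121 and lacked position 65 and the last 2 bases, and AVBR-3 covered 105 and lacked the first 10 bases, positions 65 to 67 and the last 6. Near the loop, 9 sRNAs reached past position 52, and AVBR-3 listed 8 of these, AVBR-13 6 and AVBR-2 5. At the other end, 9 sRNAs held bases of the 3' tail left unpaired in this fold, of which AVBR-2 listed 4, AVBR-3 2 and AVBR-13 6.

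The lists differed in sRNA length. The median was 21 nt under AVBR-2, 23 nt under AVBR-3 and 22 nt under AVBR-13. Among sRNAs listed under 1 code only, the median was 21 nt for each code. Among sRNAs shared with another code, it was 21 nt under AVBR-2 and 23 nt under both AVBR-3 and AVBR-13. AVBR-2 listed 3 sRNAs of 19 nt, 9 of 20, 16 of 21, 5 of 22, 5 of 23 and 4 of 24, with none of 18 or 25 nt. AVBR-3 listed 3 of 18 nt, 2 of 19, 2 of 20, 3 of 21, 1 of 22, 4 of 23, 6 of 24 and 2 of 25. AVBR-13 listed 1 of 18 nt, 1 of 19, 4 of 20, 8 of 21, 1 of 22, 6 of 23, 6 of 24 and 2 of 25. AVBR-2 therefore had a single peak at 21 nt, AVBR-3 was highest at 24 nt, and AVBR-13 was high at 21 nt and again at 23 and 24 nt.

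**Figure D4:**
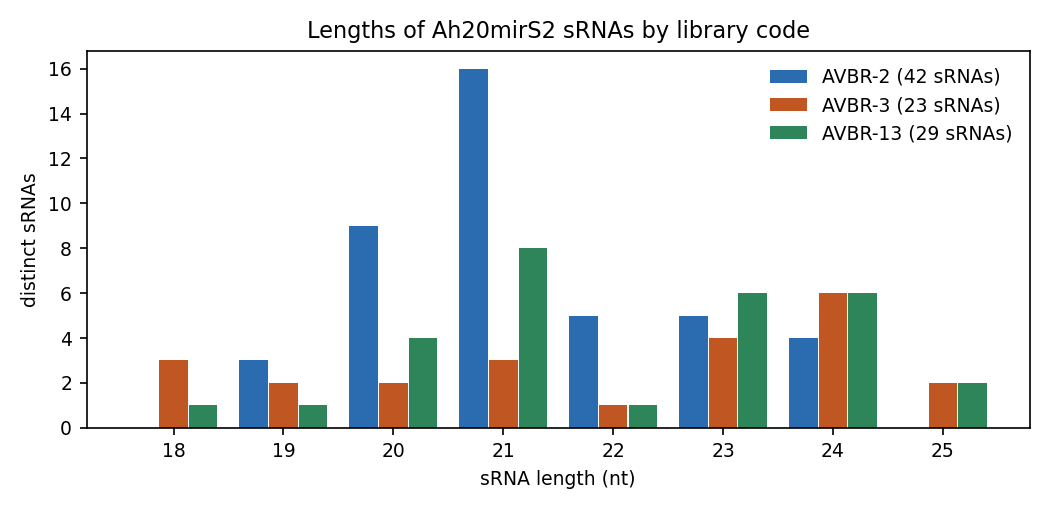
Number of distinct Ah20mirS2 sRNAs (vertical axis) of each length in nt (horizontal axis), with a bar per library code. AVBR-2 has its highest bar, 16, at 21 nt, AVBR-3 its highest, 6, at 24 nt, and AVBR-13 has 8 at 21 nt and 6 each at 23 and 24 nt.

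The share of 21-nt sRNAs was 38.1% under AVBR-2 (25 to 53.2), 13.0% under AVBR-3 (4.54 to 32.1) and 27.6% under AVBR-13 (14.7 to 45.7), with overlapping intervals. In length classes chosen after the lengths had been seen, 20 to 22 nt made up 71.4% of AVBR-2 (30 of 42, 56.4 to 82.8), 26.1% of AVBR-3 (6 of 23, 12.5 to 46.5) and 44.8% of AVBR-13 (13 of 29, 28.4 to 62.5). The intervals of AVBR-2 and AVBR-3 do not overlap, and that of AVBR-13 overlaps both. The 23 to 25-nt class made up 21.4% of AVBR-2 (9 of 42, 11.7 to 35.9), 52.2% of AVBR-3 (12 of 23, 33.0 to 70.8) and 48.3% of AVBR-13 (14 of 29, 31.4 to 65.6), where the intervals overlap.

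Length was also counted by place. In the outer 5' arm, all 14 sRNAs of AVBR-2 were of 19 to 22 nt, and none was of 23 to 25 nt, which a Wilson interval limits to a share of 21.5% or less. There, 2 of the 4 sRNAs of AVBR-3 were of 23 to 25 nt and 1 of the 5 of AVBR-13, and the medians were 21 nt under AVBR-2, 22 nt under AVBR-3 and 21 nt under AVBR-13. In the inner 5' arm, 6 of the 14 sRNAs of AVBR-2 were of 23 to 25 nt, as were 7 of the 12 of AVBR-3 and 8 of the 9 of AVBR-13, and the medians there were 22, 23 and 24 nt. On the 3' arm the median was 21 nt under each of the 3 codes.

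For each library, the sRNAs at the 5' end that held most of them are printed here, to show lengths at single bases. AVBR-2 had 5 sRNAs each at positions 30 and 31, AVBR-3 had 6 at position 32, and AVBR-13 had 3 each at positions 31, 32 and 103. In the following sets the capitals mark the bases by which an sRNA is longer than the shortest of its set.
AVBR-2, position 30, mirS2_sRNA121: tttatgtctttgtgtatatg
AVBR-2, position 30, mirS2_sRNA122: tttatgtctttgtgtatatgT
AVBR-2, position 30, mirS2_sRNA123: tttatgtctttgtgtatatgTA
AVBR-2, position 30, mirS2_sRNA124: tttatgtctttgtgtatatgTAC
AVBR-2, position 30, mirS2_sRNA125: tttatgtctttgtgtatatgTACA
AVBR-2, position 31, mirS2_sRNA109: ttatgtctttgtgtatatg
AVBR-2, position 31, mirS2_sRNA110: ttatgtctttgtgtatatgT
AVBR-2, position 31, mirS2_sRNA111: ttatgtctttgtgtatatgTA
AVBR-2, position 31, mirS2_sRNA112: ttatgtctttgtgtatatgTAC
AVBR-2, position 31, mirS2_sRNA114: ttatgtctttgtgtatatgTACAC
AVBR-3, position 32, mirS2_sRNA86: tatgtctttgtgtatatgt
AVBR-3, position 32, mirS2_sRNA87: tatgtctttgtgtatatgtA
AVBR-3, position 32, mirS2_sRNA89: tatgtctttgtgtatatgtACA
AVBR-3, position 32, mirS2_sRNA90: tatgtctttgtgtatatgtACAC
AVBR-3, position 32, mirS2_sRNA91: tatgtctttgtgtatatgtACACT
AVBR-3, position 32, mirS2_sRNA92: tatgtctttgtgtatatgtACACTT
AVBR-13, position 31, mirS2_sRNA113: ttatgtctttgtgtatatgtaca
AVBR-13, position 31, mirS2_sRNA114: ttatgtctttgtgtatatgtacaC
AVBR-13, position 31, mirS2_sRNA115: ttatgtctttgtgtatatgtacaCT
AVBR-13, position 32, mirS2_sRNA87: tatgtctttgtgtatatgta
AVBR-13, position 32, mirS2_sRNA91: tatgtctttgtgtatatgtaCACT
AVBR-13, position 32, mirS2_sRNA92: tatgtctttgtgtatatgtaCACTT
AVBR-13, position 103, mirS2_sRNA9: aacacgtaaacacataaacac
AVBR-13, position 103, mirS2_sRNA11: aacacgtaaacacataaacacAC
AVBR-13, position 103, mirS2_sRNA12: aacacgtaaacacataaacacACT
At position 31, AVBR-2 listed every length from 19 to 22 nt and 24 nt, whereas AVBR-13 listed 23, 24 and 25 nt. mirS2_sRNA114, of 24 nt, is the 1 sRNA from this base that both list. Position 32 did not show shorter sRNAs under AVBR-2. There, AVBR-2 listed 20, 23 and 24 nt, and AVBR-13 listed 20, 24 and 25 nt. AVBR-3 listed 19, 20, 22, 23, 24 and 25 nt at that position. Of the 5 sRNAs of AVBR-2 at position 30, mirS2_sRNA122 and mirS2_sRNA123 of 21 and 22 nt were listed under no other code.

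Counted over distinct sRNAs, U was the most frequent 5' base under every code, but counted over distinct 5' ends A was the most frequent under AVBR-3. U began 71.4% of the sRNAs of AVBR-2 (30 of 42, 56.4 to 82.8), 60.9% of AVBR-3 (14 of 23, 40.8 to 77.8) and 51.7% of AVBR-13 (15 of 29, 34.4 to 68.6), while U made up 36.3% of the covered bases. A began 11.9% of AVBR-2 (5.19 to 25), 34.8% of AVBR-3 (18.8 to 55.1) and 34.5% of AVBR-13 (19.9 to 52.7). C began 6 sRNAs of AVBR-2 and 1 each of AVBR-3 and AVBR-13, and G began 1 of AVBR-2, 0 of 23 of AVBR-3, which allows a share of up to 14.3%, and 3 of AVBR-13. For each base, the intervals of the 3 codes overlap. With each 5' end counted once, the share of U was 65.2% under AVBR-2, 38.5% under AVBR-3 and 47.6% under AVBR-13, and of the 13 5' ends of AVBR-3, 7 had A and 5 had U.

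The 5' base was also counted by arm. Among sRNAs of the 5' arm, U began 85.7% of the sRNAs of AVBR-2 (68.5 to 94.3), 81.2% of AVBR-3 (57.0 to 93.4) and 78.6% of AVBR-13 (52.4 to 92.4), and U made up 50.0% of the bases there. Many of these sRNAs share a 5' end: the 28, 16 and 14 sRNAs in the same order used 13, 7 and 9 different 5' ends. Under AVBR-3, 12 of the 16 began at positions 30 to 32, all with U, and A stood at the 5' ends at positions 15, 20 and 24. On the 3' arm, where U made up 25% of the bases and A 41.2%, AVBR-2 listed 6 sRNAs with U, 6 with C and 2 with A. AVBR-3 listed 5 with A, 1 with U and 1 with C, and AVBR-13 listed 9 with A, 4 with U, 1 with C and 1 with G. The share of A on the 3' arm was thus 14.3% under AVBR-2 (4.01 to 39.9), 71.4% under AVBR-3 (35.9 to 91.8) and 60.0% under AVBR-13 (35.7 to 80.2), with intervals that overlap. The 6 sRNAs with C under AVBR-2 include the 3 of 1 common 5' end at position 97. The sRNAs with A share 5' ends too. At position 103, AVBR-3 listed 2 and AVBR-13 3, and at position 89, AVBR-2 listed 2, AVBR-3 1 and AVBR-13 2.

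**Figure D5:**
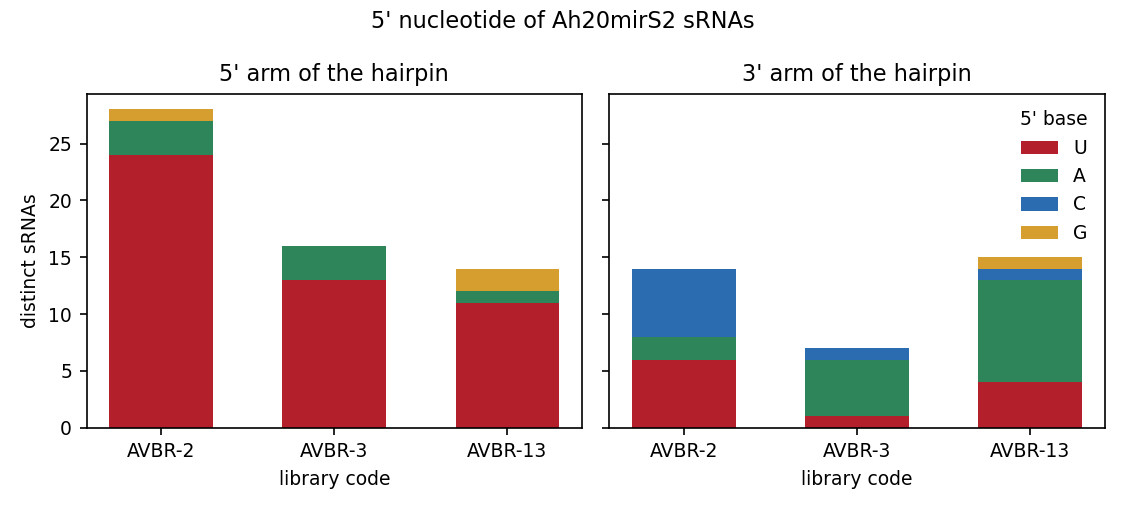
Number of distinct Ah20mirS2 sRNAs (vertical axis) by library code (horizontal axis) and by 5' base (colours), for the 5' arm on the left and the 3' arm on the right. U fills most of each bar on the 5' arm, whereas on the 3' arm A is the largest part for AVBR-3 with 5 and for AVBR-13 with 9, and U and C are equal at 6 each for AVBR-2.

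Pairs of a 5'-arm and a 3'-arm sRNA were searched for those with, at both ends of the predicted stem, the 2-nt 3' overhang that Dicer-like enzymes leave. Over the 3 libraries together, 6 of 806 combinations with both 5' ends paired in the fold were such pairs. In AVBR-2, 3 pairs had both strands listed, namely mirS2_sRNA102 with mirS2_sRNA16, mirS2_sRNA103 with mirS2_sRNA44 and mirS2_sRNA56 with mirS2_sRNA52. In AVBR-13 there was 1, mirS2_sRNA87 with mirS2_sRNA83, and in AVBR-3 there was none. The combinations numbered 264 in AVBR-2, 98 in AVBR-3 and 168 in AVBR-13, so these counts are too low to tell the codes apart. The remaining 2 pairs, mirS2_sRNA108 with mirS2_sRNA6 and mirS2_sRNA113 with mirS2_sRNA80, had their strands under different codes. The strands of the 6 pairs were of 20, 21 or 23 nt. Equal length within a pair follows from the search rule and is no result. The unpaired stretches within the predicted stem are of the same size on both arms.

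No sRNA of any code matched the A. thaliana reference genome TAIR10.1 with 0 or 1 mismatch over its whole length, on either strand and without gaps. Outside the A. thaliana S-locus, this is no result about the sRNAs. The study's methods, stated for the other precursors, kept no reads that also mapped to TAIR10 with up to 1 mismatch. Such a filter removes these matches before a table is made, except at the A. thaliana S-locus, which was masked in that mapping. The nearest site had 2 mismatches for 32 sRNAs, 3 for 25, 4 for 9 and 5 for 2. Their median lengths were 20, 21, 24 and 24.5 nt in the same order, so the number of mismatches went with length. Counts by code are therefore no measure of likeness to the A. thaliana genome. Under AVBR-2, 20 of 42 had a site with 2 mismatches, under AVBR-3 11 of 23, and under AVBR-13 10 of 29. The longest sRNA with such a site was mirS2_sRNA125, one of the 6 listed under all 3 codes, whose site lies at chr2:19127295-19127318 on the minus strand of TAIR10.1. It is shown beside its site, as sequence from the reference, with capitals marking the bases that differ.
mirS2_sRNA125: tttatgtCtTtgtgtatatgtaca
TAIR10.1 site: tttatgtAtAtgtgtatatgtaca
The differences are C8A and T10A, with the base of the sRNA first and positions counted from 1 at its 5' end. The site lies within the laccase gene LAC6 (AT2G46570), annotated on the plus strand, and within AT2G46572, a long non-coding RNA annotated on the minus strand, and no annotated exon of either gene overlaps it. It was a nearest site of 13 Ah20mirS2 sRNAs, of which AVBR-2 listed 10, AVBR-3 7 and AVBR-13 4. These sRNAs overlap each other on the precursor. A match in sequence is a description and says nothing of whether the site is bound.

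The spread between the 3 Ah20mirS2 libraries can be set beside that of the other precursors, whose codes are likewise not tied to fractions. For Ah20mirS2 the lists held 23 to 42 sRNAs, the median lengths were 21 to 23 nt, and the shares of 5' U ran from 51.7% to 71.4%, with overlapping intervals. For Ah20mirS3 the lists held 38 to 78 sRNAs, the medians were also 21 to 23 nt, and the shares of 5' U ran from 21.1% (11.1 to 36.3) to 67.9% (57.0 to 77.3). For Ah04mir1887 the lists held 30 to 72, the medians were 21 to 22 nt, and the shares ran from 28.9% (17.7 to 43.4) to 66.7% (48.8 to 80.8). In each of the other precursors, the lowest and the highest interval of 5' U do not overlap. The share of 21-nt sRNAs ran from 13.0% to 38.1% for Ah20mirS2, against 23.7% to 34.8% for Ah20mirS3 and 17.8% to 26.7% for Ah04mir1887, with overlapping intervals within each precursor.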

How the data were processed

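sRNAs were sequenced by the study from immature floral buds, in an AGO1-IP, an AGO4-IP and an input fraction. According to the study's methods, reads were trimmed with TrimGalore and mapped with ShortStack, allowing 1 mismatch, in separate steps against TAIR10, whose own S-locus was masked, and against the S-allele of A. halleri. Reads that mapped to the S-allele and nowhere in the masked TAIR10 were kept. This removes sRNAs close to A. thaliana sequence outside the masked region from the table. This is stated there for the Ah04mir1887 and Ah20mirS3 samples. The submitters' processing notes name Trim Galore, FastQC, Bowtie and TAIR10. The deposited table gives, per sRNA and library, positions and length in nt, strand, sequence and a library code, with no counts or other abundance, so depth is unknown.

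From the table, distinct sRNAs were counted by start, end, strand and sequence, with starts read as in a BED file. The precursor was rebuilt from overlapping sRNAs and folded with RNAfold (ViennaRNA 2.7.2). Arms were assigned by the midpoint of the sRNA. Shares carry 95% Wilson intervals. Genome matches were searched in TAIR10.1 as given by RefSeq, which is newer than the build the authors mapped to. Python 3.11.15, pandas 2.3.3, numpy 2.4.6, numba 0.67.0 and matplotlib 3.10.9 were used, and the scripts were tested on simulated hairpins. With 1 library per fraction and no map from codes to fractions, no test was made and no fraction is compared.

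The sRNAs printed were every one under all 3 codes, for each code the 5' ends with most of its sRNAs, for each pair of codes those that only this pair shares (where more than 5, the longest, the shortest and those of 21 nt), and both parts of the precursor. Those of position 97, the members of duplexes, the 2 sRNAs of AVBR-13 only from the 5' arm and the genome site were named after their values were seen. The members, lists and comparisons were chosen with earlier results of these data known. Alternatives changed what counts as distinct or shared, the lengths counted, the arm rule and the codes included.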

Additional observations from a re-analysis of the deposited data

How the results depend on the processing

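The numbers of distinct sRNAs per code were the same by sequence alone, at 42, 23 and 29. With sRNAs counted as shared by their 5' end, 23 in place of 48 stood under 1 code only and 27 in place of 6 under all 3. With each code left out in turn, the number under 1 code only ran from 30 to 47 and the number under 2 codes from 9 to 12. The latter are the pairwise overlaps of the 2 codes left, which include sRNAs listed under all 3. With only shared sRNAs counted, the 5' arm share became 80.0% under AVBR-2 and 70.6% under AVBR-13, and the 5' U share became 78.6% under AVBR-3. With each 5' end counted once, the 5' U share under AVBR-3 was 38.5%. The other 22 planned values, and all 12 of the length classes of 20 to 22 and 23 to 25 nt that were added after seeing the data, stayed within the Wilson interval of the main share or within 1.5 times the main number. No paired analysis was possible because each fraction has 1 library and the codes carry no replicate number. The unknown depth limits every statement that an sRNA was listed under 1 code only, since absence from a list can be a matter of depth.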

Other observations

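The identifiers of the Ah20mirS2 sRNAs run up to 125 in the alphabetical order of the sequences, and 68 of these numbers were used for the distinct sRNAs analysed here.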
